A study of Caenorhabditis elegans with 6 samples.

Results

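The abundance landscape described here is that of wild type Caenorhabditis elegans, strain WTN2, measured as whole pre-reproductive adults on 3 arrays. These were all the arrays titled WTN2, out of 6 in the series, and the other 3 carried RNA of the flcn-1 mutant strain RB1035, which had been backcrossed 8 times to WTN2. Animals of both strains were grown on NGM agar with OP50 bacteria, were synchronised by egg preparation, and were picked as young adults. Worms were broken open with beads, total RNA was purified with the miRNeasy kit, and the RNA was labelled with Cy3 (Low Input Quick Amp kit) and hybridised to single-colour Agilent whole-genome arrays. The design text calls the replicates biological triplicates, and the labels do not give the number of animals in a sample. No strain contrast was made, so with 1 group of 3 arrays there was no test between groups, and every difference below is a description of these arrays. The arrays measured 19801 named genes. A gene's level is the log2 processed signal of its brightest probe minus the 75th percentile of all probes on that array, so a level of 0 lies at that percentile and 1 unit is a doubling.

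A gene was called detected when its brightest probe was flagged well above background on 3 of 3 arrays, and not detected when no probe of the gene carried that flag on any array. The share of probes well above background was 68.1% on wild type 1, 71.6% on wild type 2 and 73.1% on wild type 3. Wild type 1 was on another slide than wild type 2 and 3, so what is particular to that sample and what comes from its slide cannot be told apart. No spot was saturated. Over all 43564 kept probes, detected or not, levels correlated with Pearson's r of 0.980 between wild type 1 and 2. It was 0.976 between 1 and 3, and 0.984 between 2 and 3. Probes are not independent replicates. Copies of the same probe on an array had a median SD of 0.130 to 0.157 on the log2 scale, which is the technical spread within an array. The median SD of a detected gene over the 3 arrays was 0.35. The order of genes is an order of probe brightness, because probes differ in how well they bind: among 4156 genes with several detected probes, the brightest and dimmest probe lay 1.53 apart in the median, while the SD of levels over all detected genes was 2.87.

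A whole worm holds all tissues at once, so a signal from a few neurons is diluted by the large germ line, intestine, muscle and epidermis. The young adult hermaphrodite has finished spermatogenesis, stores sperm, and is making oocytes. Its intestine makes yolk proteins that the oocytes take up, and its epidermis has secreted the adult cuticle, a coat built largely of collagens. In bulk RNA of this kind, fewer cells of a type and less RNA per cell cannot be told apart.

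Of the 19801 genes, 14313 were detected on all 3 arrays (72.3%), and 3938 had no probe well above background on any array (19.9%). The remaining 1550 genes (7.83%) lay in between. Detected genes had a median level of -0.46, with quartiles of -2.81 and 1.59, and those not detected had a median of -8.76. The boundary was not a sharp level. The dimmest detected gene was K09B11.4, at -6.34, -6.96 and -7.21 on wild type 1, 2 and 3, while the brightest gene not detected was mab-3, at -6.46, -6.80 and -6.47. A gene near this edge is therefore described by its flags and not by its level.

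**Figure D1:**
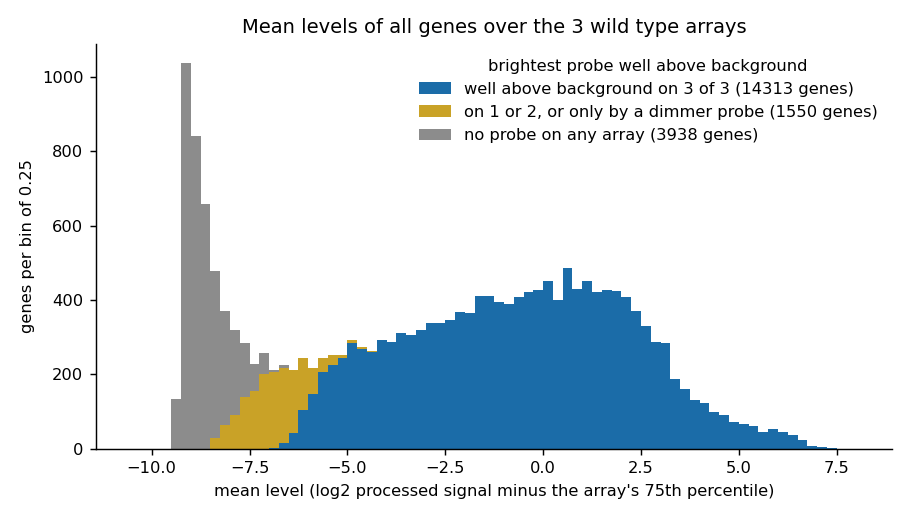
Histogram of the mean level of all 19801 genes over the 3 wild type arrays (x axis, log2 relative to the array's 75th percentile; y axis, genes per bin), coloured by detection. The 14313 detected genes form a broad hump around their median of -0.46, and the 3938 genes with no probe well above background pile up near -8.76.

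The brightest genes of the young adult were mostly those of ribosomal proteins and cuticle collagens. Of the 25 genes with the highest mean level, 15 encode cytosolic ribosomal proteins, 4 are cuticle collagens and 1 is a vitellogenin, which leaves 5 others. The highest was rps-20, a protein of the small ribosomal subunit, with levels of 7.38, 7.48 and 7.54 on wild type 1, 2 and 3. Its 3 values lay within 0.16 of each other. Their SD was 0.08, below the median SD of 0.130 to 0.157 between copies of a probe. That small spread holds for the scaling used here and not for the position of rps-20 among genes. By level on each array, rps-20 ranked 11 on wild type 1, 2 on wild type 2 and 1 on wild type 3. The next gene by mean level was Y82E9BR.3, at 7.85, 7.50 and 7.0. It was followed by rps-14, another protein of the small subunit, at 7.90, 7.27 and 6.88. These leading genes do not differ beyond their spread over the arrays: rps-14 was the highest of all genes on wild type 1 and only the fifth on wild type 3.

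The other leading genes serve general metabolism and protein biogenesis. The gene ndk-1, a nucleoside diphosphate kinase that refills the pools of nucleoside triphosphates, had levels of 7.51, 7.37 and 6.85. The gene ahcy-1, the hydrolase that clears S-adenosylhomocysteine after methylation reactions, had 7.38, 6.82 and 6.89. The gene icd-2, a subunit of the complex that binds nascent polypeptides at the ribosome, had 7.20, 7.05 and 6.55. All 3 were higher on wild type 1 than on the other arrays. The carrier ant-1.1, which exchanges ADP and ATP across the inner mitochondrial membrane, had 6.98, 6.75 and 6.47. The brightest probe can stand far above the others of its gene: ahcy-1 had 17 detected probes with a median mean level of 2.79, and the other detected probe of col-167 had a mean of 0.30 against 6.69 for the brightest. For ndk-1, the median of its 19 probes was 6.71 and the lowest 6.39, so that gene was bright by every probe.

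**Figure D2:**
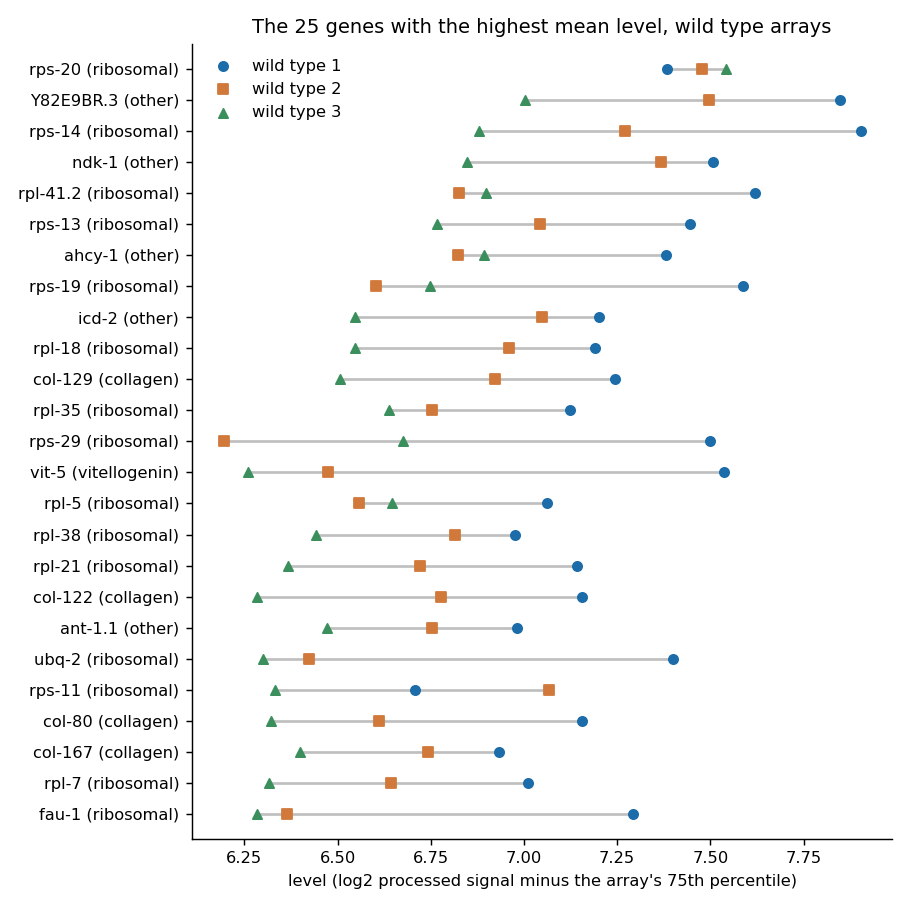
Levels of the 25 genes with the highest mean on each wild type array (x axis, log2 relative to the array's 75th percentile; points, arrays; grey lines, the range). Ribosomal protein genes fill 15 of the 25 places, and wild type 1 is the rightmost point for most genes, with rps-20 and rps-11 as exceptions.

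Among the 100 highest genes, 49 encode ribosomal proteins, 17 are cuticle collagens, 3 are major sperm proteins and 1 is a vitellogenin. These 100 genes held 18.8% of the summed gene signal on wild type 1, 16.25% on wild type 2 and 14.4% on wild type 3. The 1000 highest held 62.9%, 59.8% and 55.5%. Of the 100 highest genes, 88 had their highest level on wild type 1 and 80 their lowest on wild type 3. After quantile normalization, which gives each array the same distribution, these counts were 36 and 31, so that order depends on the scaling. Taken array by array, the lists of the 100 highest genes shared 74 genes between wild type 1 and 2, 73 between 1 and 3, and 79 between 2 and 3, with 64 in all 3. Not every gene among the 100 is protein coding. The ribosomal RNA genes rrn-3.1 and rrn-1.1 ranked 42 and 56, at 7.15, 6.11 and 6.09 and at 6.90, 6.34 and 5.86. The annotated pseudogenes msp-42 and ZK546.3 ranked 95 and 98, at 6.46, 6.21 and 5.79 and at 6.44, 6.16 and 5.81. These 4 genes were chosen after their values were seen, and whether the pseudogene probes also bind RNA of related genes was not tested.

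All 82 cytosolic ribosomal protein genes on the array were detected, against 72.3% of all genes. Their median level was 6.24, against a median of -2.21 over all 19801 genes. Their highest members, after rps-20 and rps-14, were rpl-41.2 at 7.62, 6.83 and 6.90, and rps-13 at 7.45, 7.04 and 6.77. The member with the largest range was rpl-28, at 7.12, 5.51 and 6.07. Of the 82 genes, 76 were highest on wild type 1. All 8 translation elongation factor genes were detected too, with a median of 5.54. The subunits eef-1B.1 and eef-1A.2, which deliver aminoacyl-tRNA to the ribosome or recycle the factor that does, had levels of 6.45, 5.87 and 5.79, and of 6.44, 6.09 and 5.55. The factor iff-1, a germline homologue of eIF-5A, differed most in this list, at 5.61, 3.75 and 2.53. The 31 initiation factors were all detected with a lower median of 1.97, led by ife-1, a cap-binding protein of the germ line, at 6.12, 5.49 and 5.39.

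Genes of energy metabolism were uniformly present. All 71 genes of oxidative phosphorylation encoded in the nucleus were detected, against 72.3% of all genes. Their median level was 4.15 and their median range 0.53. The carrier ant-1.1 led them, and cox-6C, a subunit of cytochrome c oxidase, followed at 6.39, 6.18 and 5.75. All 16 glycolysis genes were detected with a median of 3.67, led by the aldolase aldo-2 at 6.16, 6.02 and 5.45 and the enolase enol-1 at 5.87, 5.71 and 5.56. Probes on the array also carry 14 names that begin with MTCE, which were not matched to the gene table. They are given by that name only, with the brightest probe of each. All 14 were well above background on 3 of 3 arrays, with means of 3.67 to 6.81. The brightest was MTCE.23, at 7.11, 6.87 and 6.45. The brightest of the 7 probes of MTCE.35 was lowest on wild type 1, at 4.51, 5.54 and 6.06, while 12 of the 14 were highest there. Other housekeeping groups behaved alike in detection: all 32 proteasome genes, 42 of 43 constitutive chaperone genes and 54 of 55 histone genes were detected.

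Yolk protein genes were bright and varied together. Vitellogenins are lipoproteins secreted by the intestine and taken up by oocytes through the receptor RME-2. All 5 vit genes on the array were detected, against 72.3% of all genes, with a median level of 5.73. The gene vit-5 had levels of 7.54, 6.47 and 6.26 on wild type 1, 2 and 3. The gene vit-2 had 6.92, 5.70 and 5.30, and vit-4 had 6.67, 5.66 and 4.85. All of these were highest on wild type 1 and lowest on wild type 3. The gene vit-1 had 5.78, 5.24 and 3.92, and vit-6, which encodes the yolk protein cleaved into smaller pieces, had 4.98, 4.70 and 3.18. The order vit-5, vit-2, vit-4, vit-1 and vit-6 held on each array. The means of neighbours in it lay within the larger SD of the pair (SD of 0.68 to 0.97, n = 3). That SD includes the change between arrays that the vit genes share, so it does not measure their differences within an array. Several vit genes are near-identical copies, so the signal of vit-1 and vit-2, and of vit-4 and vit-5, may be shared between them. The range of each vit gene was 1.28 to 1.86, against a median of 0.66 for detected genes, and the order of the arrays was the same after quantile normalization, with median deviations of 0.53, 0.04 and -0.59.

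Cuticle collagens ranged from the brightest genes of the array to ones without signal. Of 177 cuticle collagen genes, 136 were detected (76.8%, close to the 72.3% of all genes) and 26 had no probe well above background. The brightest were col-129 at 7.24, 6.92 and 6.51, col-122 at 7.16, 6.78 and 6.28, col-80 at 7.15, 6.61 and 6.32, and col-167 at 6.93, 6.74 and 6.40. Each was highest on wild type 1 and lowest on wild type 3. The adult collagen col-19, a standard marker of the adult epidermis, had levels of 6.58, 6.24 and 5.77, and col-7, another adult-stage collagen, had 6.51, 6.86 and 6.54. The strut collagen bli-1 was near the edge of detection, at -5.76, -5.58 and -6.03, and bli-2 had no flag on any array. Collagens of the larval furrows were all detected at low levels: dpy-7 had -5.43, -6.43 and -4.61, and the highest, dpy-3, had -0.57, -0.87 and -2.07. Of the 3 dauer cuticle genes on the array, none was detected on all arrays, with cut-1 and col-2 not well above background on any and col-40 on 1.

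Moulting genes were largely present at low levels. Of 17 moulting genes, 16 were detected (94.1%, against 72.3% of all genes), with a median level of -3.73. The nuclear receptor nhr-23, which drives each larval moult, had levels of 0.00, -0.30 and -0.85, and the astacin protease nas-37, which opens the old cuticle, had -0.44, -0.77 and -0.71. The gene mlt-10 had -3.41, -4.21 and -5.27, and fbn-1 was well above background on 1 array only. The stage lists were thus mixed. The 7 adult-stage collagens had a median level of 2.85, and 3 of them were among the 1000 brightest genes. Of these 7, col-19 and col-7 lay far above the array's 75th percentile and bli-1 far below it. The larval furrow and moulting genes lay near or below that percentile.

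Sperm genes were detected throughout. All 27 major sperm protein genes on the array were detected, against 72.3% of all genes, with a median level of 5.59. These proteins form the cytoskeleton of the crawling sperm and also signal to oocytes. The gene msp-81 had levels of 6.40, 5.91 and 6.49, and msp-51 had 6.63, 6.05 and 5.70. Members of this family are near-identical, so probes of different msp genes can share signal and their separate levels are uncertain. All 43 genes named for sperm function were detected as well, with a median of -0.90. Their highest member was gsp-3, a sperm phosphatase, at 3.81, 4.26 and 3.69, followed by spe-18 at 2.83, 3.95 and 3.18. The gene spe-9, which the sperm needs to fertilise the oocyte, had -4.46, -2.70 and -3.36, and fog-3, which sends germ cells to the sperm fate, had -2.71, -2.32 and -1.44. Both were lowest on wild type 1, as were 25 of the 43, whereas 22 of the 27 msp genes were highest there. After quantile normalization, the median deviation of the 43 genes on wild type 1 was -0.28 and that of the msp genes 0.00.

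Oocyte and germline genes were detected without exception. All 30 oocyte and eggshell genes were detected, against 72.3% of all genes, with a median level of 2.74. The eggshell proteoglycan core protein cpg-1 had levels of 6.08, 5.62 and 4.73, and cpg-2 had 5.98, 5.20 and 4.85. The maternal zinc-finger protein pos-1, which sets up cell fates in the embryo, had 5.91, 5.18 and 5.01. The yolk receptor rme-2 had 5.64, 5.31 and 4.30. All of these were lowest on wild type 3, as were 27 of the 30 genes. Wild type 3 stayed lowest after quantile normalization, with a median deviation of -0.39 from each gene's mean, but wild type 1 and 2 then lay together. All 34 germline and meiosis genes were detected, with a median of 1.29 and a smaller median range of 0.56. The germ granule helicase glh-1 led them, at 5.84, 5.89 and 5.77. The synaptonemal complex gene syp-2 had 2.51, 1.88 and 2.60, and the germline stem cell receptor glp-1 had -2.42, -2.17 and -2.21.

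The detected share of genes that are switched on early in the embryo lay below the 72.3% of all genes. Of 46 early zygotic genes, 16 were detected (34.8%) and 21 had no probe well above background. Among those not detected were pes-10, a classic early embryonic transcript, and the transcription factors ceh-51 and hlh-27. The endoderm factor end-3 was detected at -4.14, -4.25 and -4.05, while its relative end-1 was well above background on 1 array only. The clear exception was sdz-27, named as a zygotic target of SKN-1, at 2.24, 1.21 and 1.77. The other 9 genes were flagged on 1 or 2 arrays. How far the 16 detected genes are also transcribed in adults was not tested.

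**Figure D3:**
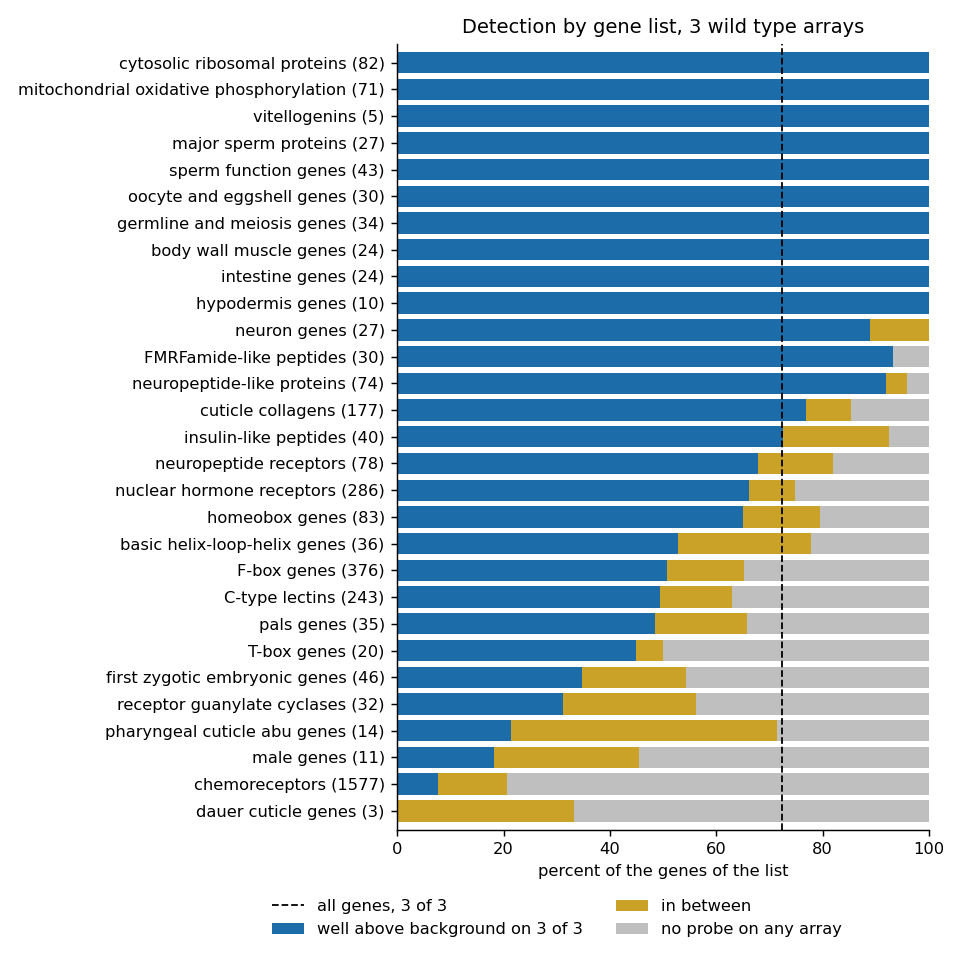
Percent of the genes of 29 lists that were detected on 3 of 3 wild type arrays, lay in between, or had no probe well above background (x axis; number of genes in parentheses; dashed line, 72.3% over all genes). Ribosomal, sperm, oocyte, muscle and intestine lists reach 100%, while chemoreceptors stand at 7.61% and dauer cuticle genes at 0%.

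Muscle genes covered a wide span. All 24 body wall muscle genes were detected, against 72.3% of all genes, with a median level of 2.36. The troponin C gene pat-10 had levels of 6.56, 6.52 and 6.15, and unc-27, a troponin I, had 5.61, 5.19 and 5.04. The main body wall myosin unc-54 had 0.38, 2.34 and -0.11, and the giant kinase unc-22, twitchin, had -1.64, -0.49 and -2.42. These long filament genes were highest on wild type 2, as were 17 of the 24. All 8 pharyngeal muscle genes were detected with a lower median of -0.97. The pharyngeal myosin myo-2 had -1.36, 0.79 and -1.63, and myo-1 had -5.28, -3.51 and -5.58. The troponin gene tnc-2 had 2.52, 3.12 and 3.37, and tni-4 had 1.77, 2.81 and 3.01. Of the 8 genes, 4 were highest on wild type 2 and 4 on wild type 3. All 4 other detected probes of myo-2 had their extremes on the same arrays as its brightest probe, with ranges of 2.34 to 2.48.

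Of 9 pharyngeal gland genes, 7 were detected (77.8%, close to the 72.3% of all genes). Of these 7, 5 were highest on wild type 2, against 3841 of all 14313 detected genes (26.8%). The gene phat-4 had levels of 1.07, 2.55 and 1.03, and phat-2 had -4.06, -2.11 and -2.95. The products of the 14 abu genes resemble proteins of the pharyngeal cuticle. Of these genes, 3 were detected (21.4%, against 72.3% of all genes) and 4 had no probe well above background. The gene abu-1 had -6.01, -2.30 and -5.45, and abu-4 had -5.62, -3.11 and -5.78. The gene abu-15 was well above background on 2 arrays, at -8.89, -1.96 and -4.38, and abu-8 likewise, at -7.25, -2.47 and -4.47. These 4 were highest on wild type 2, but abu-13, flagged on 2 arrays, was highest on wild type 1, at -5.06, -6.13 and -6.0.

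Intestinal genes were detected in full. Of the 24 intestine genes, all were detected, against 72.3% of all genes, with a median level of 3.40. The aspartyl protease asp-1 had levels of 6.77, 6.14 and 5.74, and the cathepsin cpl-1 had 5.67, 5.74 and 4.90. The peptide transporter pept-1 had 3.82, 3.47 and 3.41, and the GATA factor elt-2, the main regulator of intestinal fate, had -0.40, 0.10 and -0.19. The transcription factor was thus measured near the array's 75th percentile and its tissue's digestive enzymes far above it. The protease asp-6 varied more, at 4.88, 2.26 and 2.46. The metallothionein mtl-1, induced by metals, had -3.64, -5.81 and -4.71, and its relative mtl-2 had 4.10, 2.91 and 3.77.

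Lipid genes were detected in full and were mostly bright. All 17 genes of fatty-acid and retinol-binding and lipid-binding proteins were detected, against 72.3% of all genes. Their median level was 3.19, led by far-1 at 6.53, 6.33 and 6.06. All 15 desaturase and elongase genes were detected, with a median of 3.21, and elo-6 led at 5.70, 4.96 and 5.09, while elo-9 was dim, at -2.09, -3.51 and -2.91. The desaturase fat-6 had 5.01, 4.10 and 4.64, and fat-2 had 4.65, 4.41 and 4.45. The desaturase fat-7, which like fat-6 makes oleate from stearate, had 3.00, -1.25 and -2.54. Its range of 5.53 was the largest of all detected genes, and the range of fat-6 was 0.91.

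Among defence families, the detected share of the C-type lectins and pals genes lay below the 72.3% of all genes, and that of the lysozymes and small peptides lay near it. Of 243 C-type lectin genes, 120 were detected (49.4%) and 90 had no probe well above background. The brightest was clec-87 at 6.00, 5.75 and 5.37, and clec-63 had levels of 5.71, 5.76 and 4.55. Of 16 lysozyme genes, 11 were detected (68.8%), led by ilys-5 at 6.59, 6.30 and 5.90 and lys-4 at 5.79, 5.45 and 5.44. Of 53 antimicrobial-like small peptide genes, 38 were detected (71.7%), and fipr-21 led at 6.33, 5.85 and 5.15. The pals genes, a family known from the response to intracellular pathogens, had 17 of 35 members detected (48.6%). The highest of them, pals-24, had 1.86, 2.00 and 3.11. Stress genes that are low in unstressed worms were measured but dim: hsp-16.2 had -6.03, -5.59 and -5.39, hsp-70 had -5.41, -4.65 and -4.36, and hsp-16.41 had -2.19, -4.58 and -3.99. All 6 genes of that inducible list were detected.

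Among detoxification families, 60 of 67 UDP-glucuronosyltransferase genes (89.6%) and 39 of 43 glutathione S-transferase genes (90.7%) were detected, against 72.3% of all genes. Of 77 cytochrome P450 genes 59 were detected (76.6%), which is close to that share. The brightest of each were ugt-62 at 4.59, 4.86 and 4.79, gst-7 at 4.90, 5.01 and 4.98, and cyp-35C1 at 2.27, 2.54 and 2.89. The UDP-glucuronosyltransferases leaned to wild type 3, where 48 of the 60 detected members were highest. For example, ugt-53 had -1.26, -0.12 and 1.06, and ugt-4 had -0.68, 0.01 and 1.22. Over all detected genes, 5292 of 14313 were highest on wild type 3.

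Most of the listed neuronal genes were detected, although neurons take a small share of the body. Of 27 neuron genes, 24 were detected (88.9%, against 72.3% of all genes), and each of the others was flagged on at least 1 array. The synaptobrevin snb-1 had levels of 2.31, 3.55 and 3.66, and the neuropeptide carboxypeptidase egl-21 had 0.60, 1.33 and 0.62. The GABA-synthesising enzyme unc-25 had -0.19, 0.23 and -0.16. By contrast tph-1, which makes serotonin in a few cells, was well above background on 2 arrays, and cat-1, the monoamine vesicle transporter, on 1. Glial genes were fewer: 2 of 5 were detected (40%), with fig-1 at -1.85, -0.55 and -1.90.

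The detected share of the flp and nlp families lay above the 72.3% of all genes. Of 30 FMRFamide-like peptide genes, 28 were detected (93.3%), led by flp-12 at 1.72, 1.55 and 2.30 and flp-22 at 1.34, 1.60 and 1.89. Of 74 neuropeptide-like protein genes, 68 were detected (91.9%), and the median level of the 74 was -1.53. The brightest of these, nlp-24 at 5.84, 5.65 and 6.11 and nlp-27 at 5.86, 5.15 and 5.33, were among the brighter genes of the array. Insulin-like genes, neuropeptide receptors and channels lay near the share of all genes. Of 40 insulin-like genes, 29 were detected (72.5%), led by ins-37 at 0.62, 1.55 and 1.15. Of 78 neuropeptide receptor genes, 53 were detected (67.9%) and 14 had no probe well above background, and the highest, npr-5, had -1.55, -1.24 and -1.61. Of the ligand-gated ion channel genes, 77 were detected (74.04%) and 16 had no probe above background, and of 64 potassium channel genes 46 were detected (71.9%). Receptor guanylate cyclases, many of which act in single sensory neurons, were lower, with 10 of 32 detected (31.25%) and 14 without any probe above background, among them daf-11 and gcy-18.

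The chemoreceptors were the largest family with little signal above background. These 7-transmembrane receptors are mostly used by a few sensory neurons each. Of 1577 chemoreceptor genes, 120 were detected (7.61%, against 72.3% of all genes) and 1252 had no probe well above background. Among the subfamilies, srbc had 1 of 83 detected, srj 1 of 45, srw 4 of 138 and srh 11 of 287, whereas srr had 6 of 10. The gene with the highest level was str-176, at 1.45, 1.35 and 1.93, above the 75th percentile on every array. The gene srr-4 had 1.04, 1.51 and 1.62, and srv-1 had 0.12, 0.42 and 1.07. The fourth, srbc-15, is annotated as a pseudogene and had 1.01, -0.47 and 0.83. Of the 297 chemoreceptor pseudogenes, 8 were detected.

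Male genes were near or under the edge of detection. Of 11 male genes, 2 were detected on all arrays (18.2%, against 72.3% of all genes) and 6 had no probe well above background. The polycystins lov-1 and pkd-2, which act in male sensory neurons, were both among those 6, as were mab-3, dmd-3, cwp-1 and cwp-3. The sex-determining gene her-1 was detected at -4.50, -5.07 and -4.51, and cwp-4 at -5.44, -4.32 and -4.72. The remaining 3 genes were flagged on 1 or 2 arrays. Genes of male neurons were thus partly measured, with cwp-4 detected and lov-1, pkd-2, cwp-1 and cwp-3 without a flag.

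Families of transcription factors lay below the 72.3% of all genes in detection. Among nuclear hormone receptors, a family greatly expanded in nematodes, 189 of 286 were detected (66.1%). The highest were nhr-114 at 3.57, 3.61 and 2.64 and nhr-68 at 3.00, 2.58 and 3.11, both known from metabolic regulation in the intestine. Of 83 homeobox genes 54 were detected, led by pal-1, a maternal caudal homologue, at 2.78, 2.04 and 2.98. Of 36 basic helix-loop-helix genes 19 were detected, led by mxl-1 at 3.70, 2.66 and 3.25, and of 20 T-box genes 9 were detected. F-box genes, which supply adaptors for protein degradation, had 191 of 376 members detected (50.8%), with fbxa-215 highest at 3.27, 2.02 and 2.73. The argonautes, which are not transcription factors, lay above the share of all genes, with 21 of 23 detected (91.3%). They were led by ppw-1 at 3.66, 3.63 and 3.24 and the piRNA-binding prg-1 at 3.20, 3.39 and 2.64.

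Detection also differed by kind of gene and by chromosome. Of 18289 protein-coding genes, 75.2% were detected, against 34.9% of 1425 annotated pseudogenes. All 14 small nucleolar RNA genes and all 6 small nuclear RNA genes on the array were detected. By chromosome, the detected share was 83.0% on I, 72.5% on II, 85.9% on III, 76.0% on IV, 56.3% on V and 73.97% on X. Chromosome V carries many chemoreceptor genes. With protein-coding genes alone and the chemoreceptors left out, its share was 73.4%, against 88.0% on III and 80.2% over all 17009 such genes. Detected genes of chromosome X had the lowest median level, at -1.69, against 0.28 on I and 0.25 on III, and 3.39% of X-linked genes were among the 1000 brightest, close to 3.35% on V and below the 4.95% to 7.21% on the other chromosomes. The germ line is known to keep most X-linked genes at low expression. That background was not tested here.

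Most detected genes differed little between the 3 arrays, and a small set differed strongly. The median range, the highest minus the lowest of the 3 levels, was 0.66, and 90% of detected genes had a range under 1.34. A range of at least 2, which is a factor of 4 in signal, was found in 307 of 14313 detected genes (2.14%). At the edge of that threshold, pud-2.1 lay just inside with a range of 2.03 and nspb-8 just outside with 1.99. The 307 genes were mostly dim, with a median level of -2.59. None was among the 100 brightest genes and 1 was among the 1000 brightest. Of the 307, 179 were highest on wild type 1 (58.3%), against 5180 of all 14313 detected genes (36.2%), and 143 were lowest on wild type 3 (46.6%), against 30.2%. Differences of at least 2 separated 145 genes between wild type 1 and 2 and 185 between wild type 1 and 3, but 73 between wild type 2 and 3, which shared a slide.

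Among genes detected on 3 of 3 arrays, the 20 most variable were led by fat-7, the desaturase described above. Genes flagged on fewer arrays could not enter. Among them was abu-15, flagged on 2 arrays, whose range of 6.93 was larger than that of fat-7. Which genes are among the 20 depends on the processing: 6 remained with normexp, 7 in the deposited table and 3 without replicate 1, where the count of 307 was 171, 261 and 85. The gene nhr-48, a nuclear hormone receptor, had levels of -1.0, -0.44 and -4.81, and was low on wild type 3 alone. The insulin-like gene ins-20 had -2.31, -5.82 and -6.13, and was high on wild type 1 alone. The antimicrobial-like peptide gene cnc-11 had -1.88, -5.65 and -4.62, and its relative cnc-4 had 0.02, -2.30 and -3.58. Both were high on wild type 1. The gene gdi-1, which encodes an inhibitor that recycles Rab proteins, had 2.70, 0.78 and -1.07. The gene lpd-2, named for lipid-depleted animals after its knockdown, had 2.83, 0.48 and -0.71. The collagen gene col-137 had -1.92, 1.74 and 0.93, and was low on wild type 1, unlike the bright collagens. The genes F12E12.1, C34E10.9, F48C1.8, C47F8.1 and drd-10 were high on wild type 1, while K10H10.4 was low there and Y39A3CL.7 low on wild type 3. The gene tmem-132, for a transmembrane protein, was high on wild type 2, at -3.69, -1.82 and -5.51, as was abu-1.

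**Figure D4:**
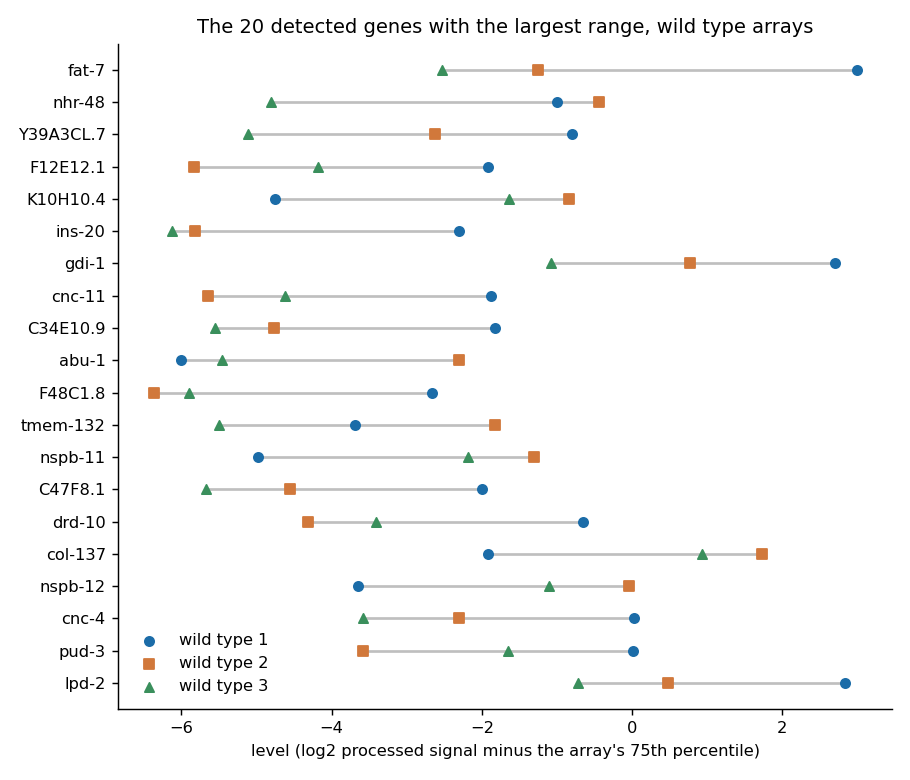
Levels on each wild type array of the 20 detected genes with the largest range (x axis, log2 relative to the array's 75th percentile; points, arrays; grey lines, the range). Wild type 1 stands at the high end for fat-7, ins-20, cnc-11 and lpd-2 and at the low end for K10H10.4, nspb-11, nspb-12 and col-137.

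Other probes of the same gene give a measure that the choice of the 20 did not use. Of the 307 genes, 230 had 1 probe (74.9%, against 67.7% of all detected genes) and 54 had another detected probe. For 16 of those 54, all the other detected probes had their highest and lowest values on the same arrays as the brightest probe. For ins-20, all 5 other detected probes did so, with ranges of 3.42 to 4.18, and for cnc-11 all 4 did, with ranges of 3.21 to 3.45. In contrast, the other probes of nhr-48 had ranges of 0.65 and 1.12. The 3 other probes of gdi-1 had ranges of 1.22 to 1.68, and none of the 3 had both its extremes on the same arrays as the brightest. For 12 of the 54 genes the other probes had a median range under 1. How often the other detected genes meet either condition was not tested, so these counts have no share to be read against. The large range of nhr-48 was thus that of its brightest probe, whereas that of ins-20 and cnc-11 was found across probes. The gene fat-7 had a single probe, so the same check could not be made.

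Some families held several of the 307 genes. The collagens had 13 of 116 detected col genes with a range of at least 2, the cnc genes 3 of 7 and the pud genes 3 of 4, beside 2.14% of all detected genes. The pud genes, named as proteins raised in insulin-signalling mutants, lie as neighbours in the genome. The gene pud-3 had levels of 0.01, -3.58 and -1.65, pud-4 had -1.0, -3.31 and -1.82, pud-2.1 had 4.47, 2.45 and 3.43, and pud-1.1 had 3.89, 2.02 and 3.31. All 4 were highest on wild type 1 and lowest on wild type 2. Near-identical copies among them may share probe signal.

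The nspb genes, a nematode-specific peptide family listed among the sperm-enriched families, formed 2 sets by their levels. The genes nspb-1 to nspb-5 were brighter and had smaller ranges, of 0.84 to 1.18, which still lay above the median of 0.66 for detected genes: nspb-1 had levels of 2.25, 2.75 and 3.28, and nspb-5 had 1.72, 2.01 and 2.56. The genes nspb-6 to nspb-12 were dimmer and low on wild type 1: nspb-6 had -1.87, 0.82 and 0.33, nspb-7 had -2.97, 0.15 and -0.48, and nspb-11 had -4.98, -1.30 and -2.18. All 12 were lowest on wild type 1, and 6 of the 12 had a range of at least 2. Their median deviations from each gene's mean were -1.40, 0.93 and 0.54. This family was described apart after its values were seen, and its members may share probe signal.

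Whole lists differed between arrays as well as single genes. Deviation here is a gene's level on an array minus its mean over the 3, and the median over the detected members is given for wild type 1, 2 and 3. For ribosomal protein genes it was 0.46, -0.09 and -0.33, but after quantile normalization it was 0.04, 0.01 and -0.01. That pattern therefore depends on the scaling, as for the 100 brightest genes, whose median deviations of 0.36, -0.06 and -0.33 became -0.07, 0.05 and -0.00. For vitellogenins it was 0.80, -0.06 and -0.88, and the order stayed after quantile normalization. For pharyngeal muscle genes it was -0.56, 0.54 and -0.10, and for pharyngeal gland genes -0.39, 0.69 and -0.16, both little changed by quantile normalization. Over all detected genes it was 0.03, -0.03 and 0.05. For the major sperm proteins it was 0.37, 0.01 and -0.35, and after quantile normalization 0.00, 0.09 and -0.07, as for the ribosomal genes. The vitellogenin, oocyte, pharyngeal and sperm function lists thus differed between samples of the same label under both scalings, and whether the samples differed in age, in tissue content or in handling was not tested.

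**Figure D5:**
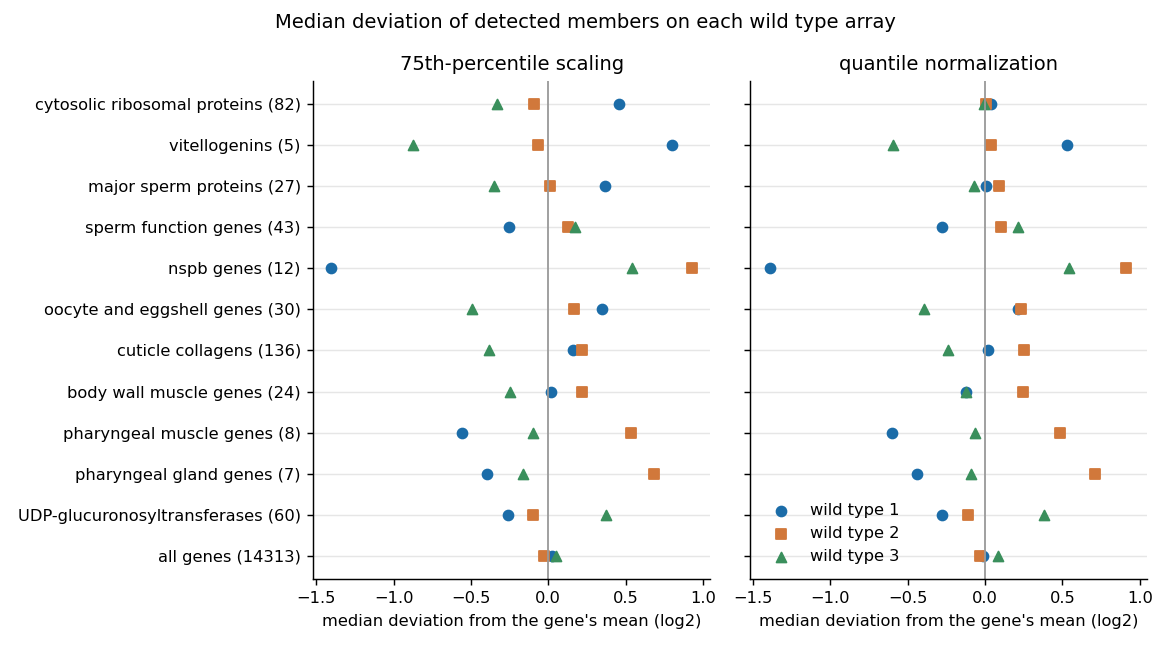
Median deviation of the detected members of 12 gene lists on each wild type array (x axis, log2; number of detected members in parentheses), with 75th-percentile scaling on the left and quantile normalization on the right. Ribosomal protein genes lie apart on the left (0.46 on wild type 1) and together on the right, while vitellogenins, pharyngeal lists and nspb genes lie apart in both.

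The arrays of RB1035, whose samples did not enter the choice, were used to see whether the same genes vary among other replicates of 1 group. The 307 genes had a median range of 1.24 over the 3 RB1035 arrays, against 0.65 for all detected genes. A range of at least 2 was found there in 85 of the 307 (27.7%), against 737 of all detected genes (5.15%). Detection was required on the wild type arrays alone. Of the 307, 279 were well above background on all 3 RB1035 arrays. Some large ranges there thus include a value without that flag, such as the 6.78 of C31G12.1, flagged on 2 of the 3. The gene fat-7 had a range of 4.91 on the RB1035 arrays, cnc-4 of 4.67 and drd-10 of 3.69, so these varied among replicates of both strains. The genes ins-20 and cnc-11 had ranges of 0.82 and 0.56 there, and nspb-7 of 0.21, so their large range was found among the wild type arrays and not among those of RB1035. The spread between copies of a probe was 0.134 to 0.372 on the RB1035 arrays and 0.130 to 0.157 on the wild type arrays. The 307 genes were dimmer than the detected genes as a whole, with medians of -2.59 and -0.46, and the part of their low level in these ranges was not tested.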

How the data were processed

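RNA of 3 wild type samples was measured on single-colour Agilent arrays, and the sample titles gave the group. Spot intensity came from Agilent's Feature Extraction software (version 10.7.3.1), per the file headers, and the deposited processed signal is background-subtracted, with no normalization between arrays. The series table deposited by the authors has log2 values, whose normalization steps were not given in the sources used here. Control spots were left out, copies of a probe were averaged, and 39 of 43603 probes with an outlier flag on a wild type array were left out. The log2 of the processed signal minus the array's 75th percentile was used. Probes were named through a gene table by sequence name or accession, which named 34281 of 43564 probes, and the gene's probe with the highest mean was used. Coordinates were not used, because the probes were designed on another build than that of the gene table.

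Genes named in the text were the 25 with the highest mean, the 20 with the largest range among detected genes, in each list up to 4 with the highest mean, up to 4 with the largest range and up to 4 not detected, every vit gene, and single markers of tissues and stages, beside the few said to be chosen later. The members and lists were chosen with earlier results of these data known. The terms of the ribosomal list were extended by rplp and fau-1 after levels were seen. Alternatives were quantile normalization, median centring, normexp with an offset of 50 followed by quantile normalization (limma 3.58.1 in R 4.3.3), the deposited table, other probe summaries, other detection rules, and leaving out each array. The other calculations used Python 3.11.15 with numpy 2.4.6 and pandas 2.3.3. The step that picks genes with a range of at least 2 was tested on simulated data, and the ranking and detection steps were not. The simulated noise was the same at every level and the simulated shift was larger than the threshold. That test therefore does not show how the step performs on dim genes. Precision is limited by the number of arrays. The mitochondrial genome list found no members in the gene table. The MTCE names, which that table did not match, were not counted in any list, so an empty list does not mean that no such transcript was measured.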

Additional observations from a re-analysis of the deposited data

Results flagged for a closer look

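Signal was also present in probes that the gene table did not name. Of 9283 such probes, 4066 carried the well-above-background flag on 3 of 3 wild type arrays (43.8%), against 72.1% of the named probes. Among the negative control spots, 0, 1 and 5 of 153 carried that flag on wild type 1, 2 and 3. Of the 100 brightest probes, 7 were unnamed. These probes were left out of every count of genes above, so the lists of bright and variable genes cover the named probes alone, and which transcripts they measure was not tested.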

How the results depend on the processing

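No paired analysis was possible because the 3 arrays form 1 group and no contrast between groups was made. The numbers of detected genes (13758 to 15086), of genes not detected (3934 to 4365), and of ribosomal (42 to 52) and collagen genes (15 to 19) among the 100 highest stayed within 1.5 times their values under the alternatives run. The number of genes with a range of at least 2, 307 as reported, was 171 with normexp and quantile normalization, 827 among genes detected on at least 1 array, 61 among genes above the 75th percentile, and 85 to 194 when an array was left out, lowest without replicate 1. Fewer arrays give smaller ranges by construction. The counts of 827 and 61 were taken over a wider and a narrower set of genes. For the normexp setting the cause was not tested. The number of lists with under 50% of members detected, 10 as reported, was 6 to 9 with an array left out, lowest without replicate 1. Of the 25 highest genes, 13 to 25 remained among the 25 highest under the alternatives, the fewest with the mean or median over probes. Of the 20 most variable genes, 3 remained without replicate 1, 6 with normexp and 7 in the deposited table. Of 200 recomputed ranges of these 20 genes, 42 moved by more than their spread, and for gdi-1 the mean over probes gave a range of 0.99. Quantile normalization was applied to the list deviations after seeing the data. With 3 arrays, genes near background are called by flags that differ between arrays.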
